A study of Mus musculus with 8 samples.

Results

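The TGF beta and BMP pathway was followed through 40 of its genes, made up of ligands, their antagonists, receptors, a coreceptor, SMAD proteins and target genes. A peak of accessible chromatin was taken as belonging to a gene when the deposited peak table listed that gene's symbol exactly. All 40 genes had at least 1 peak, out of 21490 genes in the table. Their 851 peaks, of 328733 in all, merged into 202 of the 87144 regions. ATAC-seq, in which a transposase cuts and tags open DNA, had been performed on germ cells sorted from PIWIL2-eGFP mice, in which the Piwil2 promoter drives eGFP in germ cells from before birth through early spermatids. Mice in every group first received WIN 18,446, a compound that blocks the synthesis of retinoic acid (RA), for 7 days. The 0 h group was then collected without RA, and the other groups were collected 18, 48 or 120 h after RA was injected at 9 dpp. Each timepoint had 2 libraries, each from the testes of 1 mouse, and spermatogonia advance over this time course from the undifferentiated to the type B stage. The labels name a C57BL/6 x 129s4/SvJae derivation and 100000 cells per replicate, whereas the study's methods name a C57BL/6 x SJL background and 50000 cells.

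Ligands of this family bind pairs of type I and type II serine/threonine kinase receptors. The type I receptor then phosphorylates receptor-regulated SMAD proteins, which join the common SMAD4 and bind DNA, while SMAD6 and SMAD7 restrain the pathway. Activin and TGF beta ligands act mainly through SMAD2 and SMAD3, BMP ligands through SMAD1, SMAD5 and SMAD9, and the Id genes are classical BMP targets. In the testis, BMP4 and activin A are known as somatic signals that reach spermatogonia, and BMP8A and BMP8B are made by germ cells. Accessible chromatin near a gene is not a measure of its transcript.

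The libraries held between 24643 and 72215 peaks, with 72215 and 69089 at 0 h and between 24643 and 39551 later. The authors had reduced all libraries to an equal number of tags. How many reads lie behind any given peak is unknown, since the table gives signal. All 10 germ cell and spermatogonial marker genes had a peak in all 8 libraries, as did 3 of 6 Sertoli cell genes, 2 of 3 peritubular myoid genes, 1 of 3 macrophage genes, both endothelial genes and 0 of 5 Leydig cell genes. Of all genes with a peak in both libraries of any timepoint, 72.8% had one in all libraries. At 0, 18, 48 and 120 h, 6, 3, 5 and 5 Sertoli cell genes had a peak in both libraries. For myoid genes these numbers were 3, 2, 2 and 2, for macrophage genes 2, 1, 1 and 1, and for Leydig cell genes 1, 0, 0 and 1. Per library, 23 to 58 peaks were assigned to the germ cell genes, 7 to 26 to the Sertoli cell genes, 3 to 15 to the myoid genes, 3 to 8 to the macrophage genes, 2 to 10 to the endothelial genes and 0 to 3 to the Leydig cell genes. The part of other cells in the results below was not tested.

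Windows of the GRCm38 genome around 8 summits are shown first, written on the forward strand and centred on the highest summit of the region. The first pair lies near receptor and target genes and holds the GC-rich element GGCGCC, which SMAD1 and SMAD5 can bind, shown in capitals. The Bmpr1a window at chr14:34502699-34502998 held 4 matches and the Id2 window at chr12:25098763-25099062, upstream of the gene, held 2.
Bmpr1a: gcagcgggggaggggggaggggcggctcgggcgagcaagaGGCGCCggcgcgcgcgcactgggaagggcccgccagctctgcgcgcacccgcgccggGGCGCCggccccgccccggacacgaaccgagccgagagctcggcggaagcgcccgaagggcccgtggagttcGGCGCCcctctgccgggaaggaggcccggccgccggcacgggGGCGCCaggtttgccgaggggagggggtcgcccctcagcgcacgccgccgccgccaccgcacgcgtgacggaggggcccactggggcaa
Id2: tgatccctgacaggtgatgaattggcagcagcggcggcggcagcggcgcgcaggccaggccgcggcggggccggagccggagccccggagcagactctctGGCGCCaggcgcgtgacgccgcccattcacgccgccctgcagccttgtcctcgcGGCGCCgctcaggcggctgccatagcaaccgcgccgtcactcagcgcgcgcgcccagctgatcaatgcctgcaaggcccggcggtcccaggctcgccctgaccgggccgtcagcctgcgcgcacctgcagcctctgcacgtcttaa
Next come the windows of regions whose change from 0 to 120 h differed from that of the median region. Relative to the median, the Id1 region was called higher and the regions of Bmp6 and Tgfbr3 lower. They lie upstream of Id1 at chr2:152730429-152730628, upstream of Bmp6 at chr13:38345007-38345106 and in an intron of Tgfbr3 at chr5:107137277-107137476, and none held a match.
Id1: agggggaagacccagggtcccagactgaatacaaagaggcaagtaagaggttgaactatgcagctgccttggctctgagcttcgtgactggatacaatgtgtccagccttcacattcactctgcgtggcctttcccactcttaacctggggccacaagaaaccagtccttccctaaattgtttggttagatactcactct
Bmp6: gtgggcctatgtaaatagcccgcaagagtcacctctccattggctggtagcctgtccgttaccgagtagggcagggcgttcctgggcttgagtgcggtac
Tgfbr3: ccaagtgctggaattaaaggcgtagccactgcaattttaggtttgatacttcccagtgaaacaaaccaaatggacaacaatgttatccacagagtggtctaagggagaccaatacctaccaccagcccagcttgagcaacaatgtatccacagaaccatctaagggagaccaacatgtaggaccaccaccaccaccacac
The last windows belong to regions counted at a single timepoint, which were upstream of Smad3 at chr9:63764413-63764612 for 0 h, and upstream of Lefty1 at chr1:180925277-180925476 and in an intron of Acvr1b at chr15:101195933-101196132 for 120 h. They held no match either.
Smad3: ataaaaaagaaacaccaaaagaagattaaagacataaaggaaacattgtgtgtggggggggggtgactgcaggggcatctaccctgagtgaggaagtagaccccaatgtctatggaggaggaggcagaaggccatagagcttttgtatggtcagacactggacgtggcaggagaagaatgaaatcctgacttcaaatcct
Lefty1: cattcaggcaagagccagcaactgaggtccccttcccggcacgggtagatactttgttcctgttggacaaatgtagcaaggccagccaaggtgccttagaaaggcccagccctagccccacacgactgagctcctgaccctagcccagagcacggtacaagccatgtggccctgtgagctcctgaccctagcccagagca
Acvr1b: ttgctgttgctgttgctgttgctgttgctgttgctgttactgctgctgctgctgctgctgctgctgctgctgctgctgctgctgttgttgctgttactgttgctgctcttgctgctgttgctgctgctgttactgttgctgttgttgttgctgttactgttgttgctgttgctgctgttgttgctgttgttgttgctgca
The Acvr1b window was a run of short repeats, with the triplet CTG at 38 positions and 100% of its bases marked as repeats in the reference. Repeat marks covered 47% of the Smad3 window, 24.5% of the Tgfbr3 window and 0% of the Lefty1, Id1 and Bmp6 windows.

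Counting a gene at a timepoint required an assigned peak in both of its libraries. At all 4 timepoints, 34 of the 40 pathway genes (85%) were counted, against 72.8% of all genes counted at any timepoint. At 0 h only, 3 genes (7.5%) were counted, against 12.9% of all genes. They were Bmp5, Inhba, which encodes the shared subunit of activin A and inhibin A, and Inhbb, its counterpart in activin B. Bmp5 had 3 peaks in each 0 h library and none later. Inhba had 2 and 5 peaks at 0 h and a single later peak in 120 h replicate 1, and Inhbb had 2 and 2 at 0 h and a single later peak in 48 h replicate 2. Of the other genes, Bmp4 was counted at 0 and 48 h, Bmpr1b at 0 and 18 h, and Lefty1 at 0, 48 and 120 h. When a peak in either library was enough, 1 gene was counted at 0 h only, and with the same number of highest peaks taken from each library (24643) none was.

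**Figure D1:**
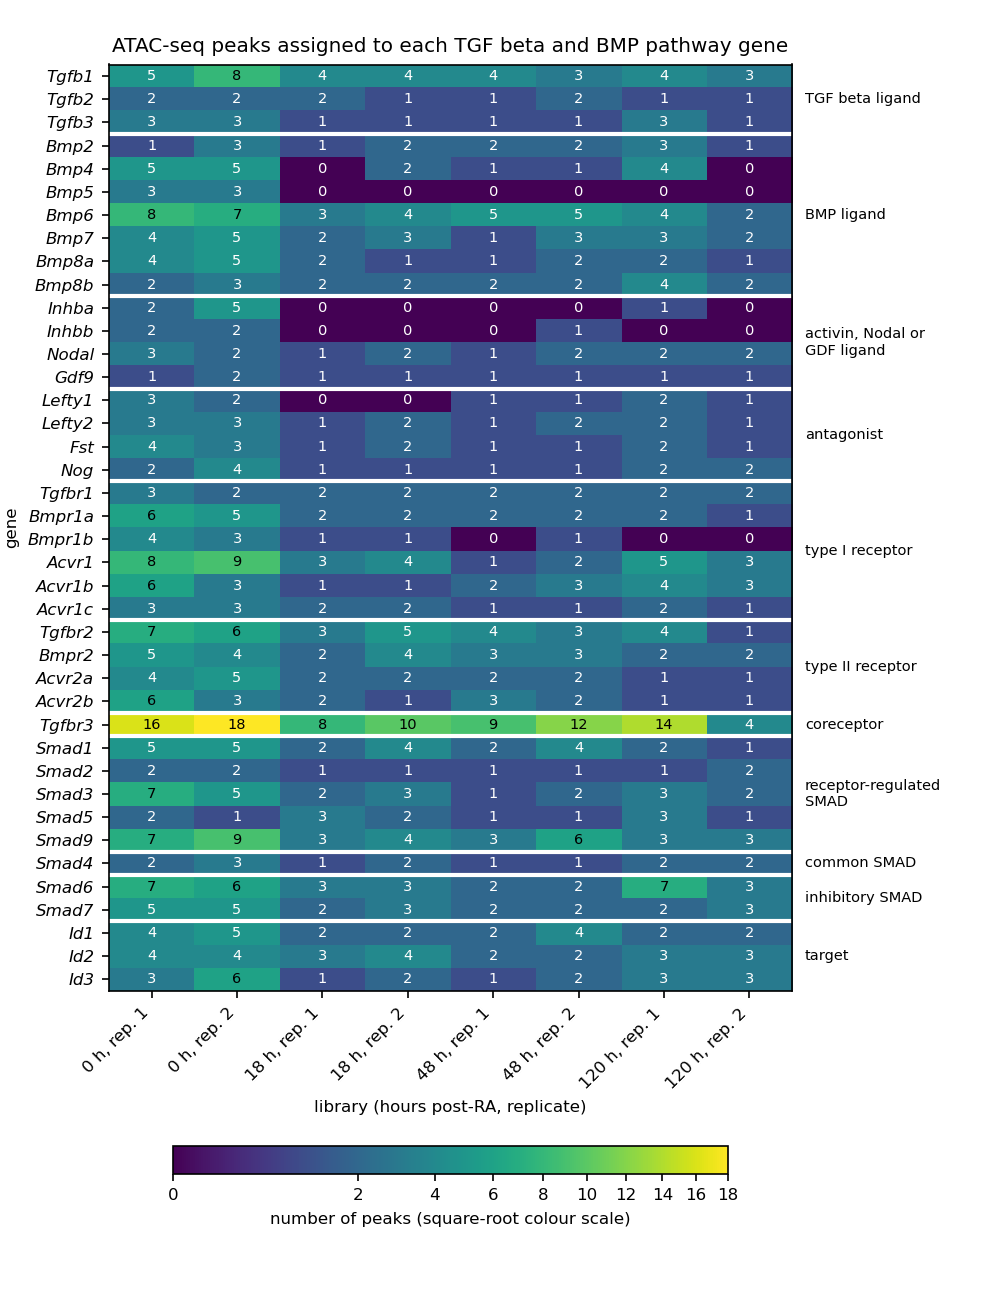
Number of ATAC-seq peaks assigned to each of the 40 genes (rows, grouped by role) in each of the 8 libraries (columns), with the number printed in each cell and a square-root colour scale. The 0 h columns are the fullest for most genes, Tgfbr3 has the most peaks (16 and 18 at 0 h), and Bmp5 has none after 0 h.

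In the plot of peaks per gene, 21 of the 40 genes had more peaks in both 0 h libraries than in each of the 6 later libraries, against 36.9% of all genes. For these 21 genes the exact permutation test of the 2 libraries at 0 h against the 6 later ones, two-sided, gave p = 0.0714, the smallest value it allows, and an adjusted p of 0.193, so no gene could be called. Tgfbr3, which encodes the coreceptor betaglycan, had the largest difference, with 17 peaks on average at 0 h and 9.5 later. Acvr1, a type I receptor of BMP ligands, followed with 8.5 and 3. Smad5 ran the other way, with 1.5 peaks on average at 0 h and 1.83 later, and Bmp2 and Bmp8b each differed by 0.167. With the same number of highest peaks in each library, 1 of the 40 genes still had more peaks at 0 h, against 2.5% of all genes. That gene was Smad3, with 4 and 4 peaks at 0 h and between 1 and 3 later. This setting takes away the larger totals of the 0 h libraries by construction. The cause of the excess at 0 h was not tested.

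The same comparison was made over regions. The 0 h libraries held 164 and 170 pathway regions, against 67 and 87 after 18 h, 66 and 86 after 48 h, and 99 and 63 after 120 h. Their number equalled between 0.227% and 0.256% of a library's peaks, with 0.227% and 0.246% at 0 h, so that they fell about as much as the library's total. Of 151 regions counted at a timepoint, 72 (47.7%) were counted at 0 h only, against 49.8% of all regions. Another 45 (29.8%) were counted at all 4 timepoints, against 25.3% of all regions. Of the 144 counted at 0 h, 63 (43.8%) were also counted at 18 h, against 39.9% of all regions. At 48 h 56 (38.9%) were, against 36.8%, and at 120 h 55 (38.2%), against 34.3%. With the same number of highest peaks in each library, 10 pathway regions (13.3%) were counted at 0 h only, against 9.43% of all regions, and 78.3% of those at 0 h were also counted at 18 h, against 80.2% of all regions. A further 51 pathway regions were never in both libraries of a timepoint, and 42 were in a single library. Over all regions, 61310 of 87144 were counted at a timepoint, and those in a single library were not counted.

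**Figure D2:**
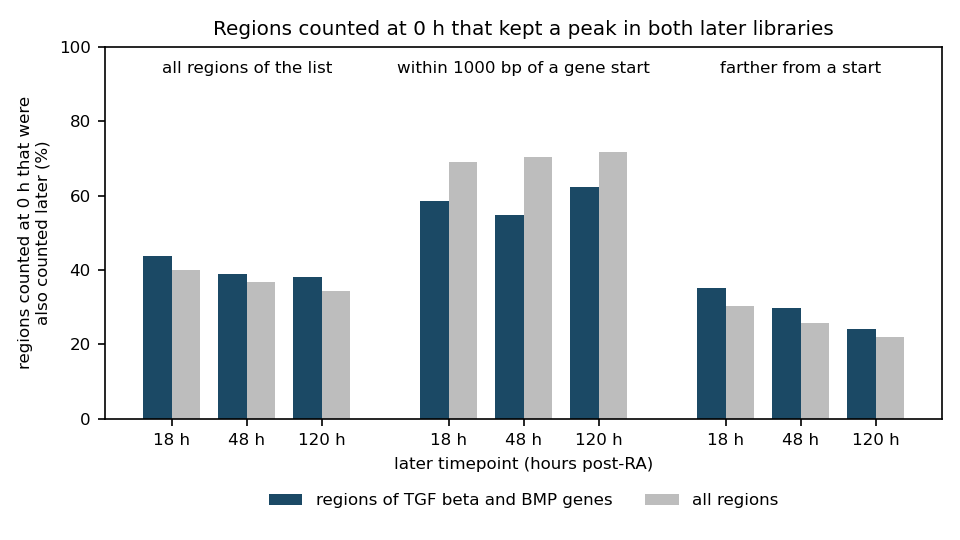
Percent of the regions counted at 0 h that were also counted at 18, 48 or 120 h, for the pathway regions (dark bars) and all regions (grey bars), over all distances, within 1000 bp of a gene start and farther away. Near starts 58.5% of the pathway regions and 69.0% of all regions were also counted at 18 h, and farther away 35.2% and 30.4% were.

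The share of regions that kept a peak was also read by distance from a start. Here and in the other comparisons, all regions include those without an assigned gene, which were placed farther than 1000 bp. Every pathway region has an assigned gene by rule. Differences in distance, CpG islands and GC content could therefore partly follow from how the regions were chosen, which was not tested. Within 1000 bp of any gene start, 31 of 53 pathway regions counted at 0 h (58.5%) were also counted at 18 h, against 69.0% of all such regions. Farther away, 32 of 91 (35.2%) were, against 30.4%. Of the 72 regions counted only at 0 h, 54 (75%) lay farther than 1000 bp from a start, against 90.0% of all such regions. By the GENCODE models of the member genes, the highest summits fell in an intron in 95 regions, upstream in 48, downstream in 26, in a coding exon in 17 and in a UTR exon in 16. CpG islands, stretches rich in CpG that mark many promoters, were found in 30 of the 45 shared regions (66.7%) and in 18 of the 72 counted at 0 h only (25%), against 58.6% and 8.24% of all regions of these kinds. Median GC content was 62.1% in the shared pathway regions and 52.8% in those at 0 h only, against 58.6% and 50.7% over all regions.

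Peak height, the signal at the summit, was then compared in the 45 pathway regions with a peak in all 8 libraries, of 15536 such regions. Heights fell in nearly all of them after RA. At 18 h 42 of 45 were lower than at 0 h by limma with Benjamini-Hochberg adjustment, against 92.3% of all regions, and 0 were higher at either an adjusted or an unadjusted p under 0.05, against 0.296%. The median fell by 1.28 on the log2 scale, or 2.43-fold, against 2.35-fold over all regions. At 48 h 41 were lower (93.3% of all regions) and 0 were higher (0.328%; unadjusted 0), with a median 2.47-fold lower and 2.57-fold over all regions. At 120 h 22 were lower (44.8% of all regions) and 0 were higher (0.882%; unadjusted 0), with a median 1.78-fold lower and 1.68-fold over all regions. From 48 to 120 h 5 pathway regions were higher (23.7% of all regions) and 0 were lower (0.180%; unadjusted 0). They included regions at Gdf9, Tgfbr1, Smad2 and Id2. Single libraries moved these counts, and in each case named here the count over all 15536 regions moved in the same direction. Without 0 h replicate 2, 25 regions were lower at 18 h, and without 18 h replicate 1, 20 were. At 120 h 10 were lower without 0 h replicate 2 and 8 without 120 h replicate 2. From 48 to 120 h the count was 3 without either 0 h library, 0 without 48 h replicate 1, 48 h replicate 2 or 120 h replicate 1, and 13 without 120 h replicate 2. On quantile-normalized heights 0, 0 and 2 pathway regions were lower at 18, 48 and 120 h, against 29, 330 and 1586 of all 15536.

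Since nearly the whole library shifted, each height was also taken relative to the median region of its library. On this scale 1 pathway region was higher at 18 h (1.25% of all regions) and 0 were lower (0.225%; unadjusted 0). At 48 h 2 were higher (3.26%) and 0 were lower (1.51%; unadjusted 4). At 120 h 8 were lower (15.8%) and 5 were higher (23.0%). From 48 to 120 h 2 were lower (7.45%) and 1 was higher (9.47%). The median change of the 45 regions at 120 h was 0.06 on the log2 scale, against 0.14 over all regions. These 19 calls fell on 16 regions. Each of the 19 was lost when at least 1 library was left out, in which case the library remaining alone at its timepoint is assumed to vary like the others, and none changed its sign under any setting. Quantile normalization ended 16 of the 19, all but those of Bmp7 at 48 h and of Bmp6 660 bp upstream and Tgfbr3 152219 bp past the start at 120 h. The mean signal in place of the summit ended 6, use of only the timepoints compared 5, removal of the GC trend 5, and an intensity trend 3, and none was lost under the replicate block. A minimum value of 50 ended 4 of the 14 calls for which it left a value. The regions of Smad4, Tgfbr2, Id2 and Smad6 were each lost under at least 4 of these settings. The values are given with the genes below.

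**Figure D3:**
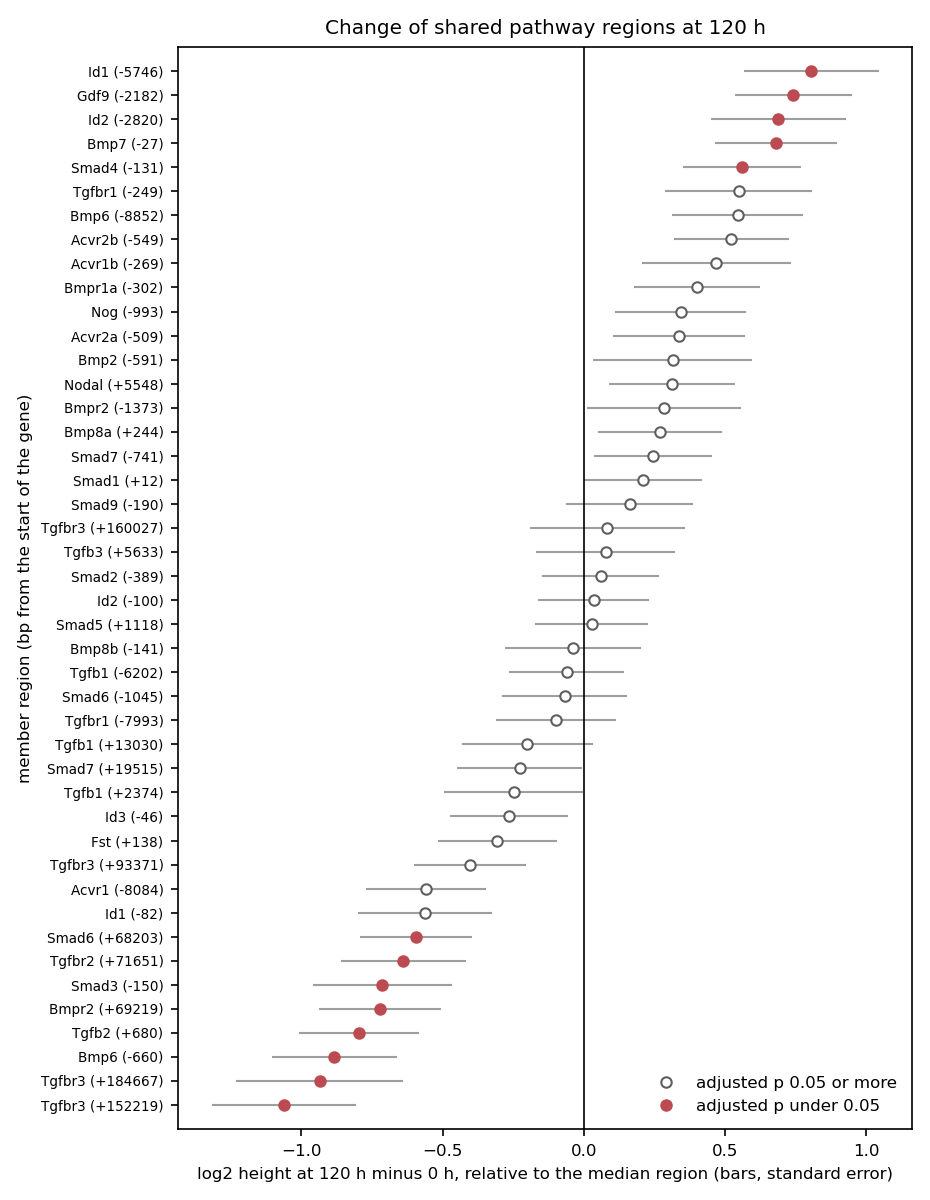
Change of all but 1 of the 45 shared pathway regions from 0 h to 120 h in log2 height relative to the median region (horizontal axis), with standard errors as bars and filled points where the limma adjusted p was under 0.05. The changes run from −1.06 for the Tgfbr3 region 152219 bp past the start to 0.81 for the Id1 region 5746 bp upstream, with 8 filled points below 0 and 5 above.

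Heights are given below in the order replicate 1, replicate 2, with pairs written in the order 0, 18, 48 and 120 h where no time is named, and a library without a peak lies under the calling limit, the lowest summit value being 24 or 25. For each gene the highest region within 1000 bp of its start is used, or its highest region where there was none. Of these regions, 26 had a peak in all libraries, and in 20 of the 26 both 0 h libraries were above every later one. The pick by the highest value in any library favours regions that are high at 0 h. This number is therefore a description and no test. How many of all shared regions did the same was not counted. Of all shared regions, 92.3%, 93.3% and 44.8% were lower at 18, 48 and 120 h without scaling, so such gaps are not particular to these genes. Upstream and past the start refer to the 1 start per gene used in the table. For 8 genes that start lay over 500 bp inside the outer end of the GENCODE gene model, by 187174 bp for Bmpr1b, 2624 bp for Inhba, 2263 bp for Gdf9, 1237 bp for Bmpr2, 1048 bp for Id2, 1040 bp for Bmp2, 795 bp for Bmpr1a and 609 bp for Bmp6.

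TGF beta ligands kept peaks at every timepoint, though not all at their starts. Tgfb1 had a region 262 bp past its start with heights of 87 and 107 at 0 h and no peak in any later library. The Tgfb3 region 447 bp upstream was likewise found at 0 h only, at 78 and 74. In Tgfb2 the region 680 bp past the start stood at 206 and 186 before RA, 52 and 75 after 18 h, 63 and 71 after 48 h, and 82 and 45 after 120 h. Both 0 h libraries were thus above every later library. Against the median region it fell by 0.80 (SE 0.21, adjusted p = 0.0114) on the log2 scale at 120 h, which was lost without 0 h replicate 1 (adjusted p = 0.106) or 120 h replicate 2 (0.0800). Of the 10 regions of these 3 genes counted at a timepoint, 5 were at 0 h only and 5 in all libraries, or 50% each against 49.8% and 25.3% of all regions.

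BMP ligands ranged from Bmp5, with no peak after RA, to Bmp7, whose start region did not pass the test against 0 h at any timepoint without scaling. Bmp5 held its highest region in an intron 11835 bp past the start, at 63 and 64 at 0 h and without a peak later. Bmp4, a mesodermal and somatic niche ligand, had a region 73 bp upstream with heights of 93 and 102 before RA, then 51 for replicate 2 of 48 h, 45 for replicate 1 of 120 h and no other peak. The later Bmp4 heights were both below those at 0 h.

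Bmp6 carried the region upstream of its gene model whose window is shown above, 660 bp from the start used in the table. It reached 535 and 618 before RA, 191 and 262 after 18 h, 106 and 184 after 48 h, and 228 and 124 after 120 h. The 0 h libraries lay above all later ones, and relative to the median region it fell by 0.88 (SE 0.22, adjusted p = 0.00863) at 120 h, a call lost only without 120 h replicate 2 (adjusted p = 0.0658). A second Bmp6 region, 8852 bp upstream, was low throughout, at 54 and 65, 48 and 40, 52 and 54, and 53 and 41. Its groups overlapped, and against the falling median it was 1.23 higher (SE 0.23, adjusted p = 0.00865) at 48 h, which was lost without 48 h replicate 1 (adjusted p = 0.0995) and was 0.76 after quantile normalization (0.0842). Repeat marks covered 58.1% of it. The test took only regions with a peak in all libraries. A region this close to the calling limit could therefore hardly fall as far as the median and stay in the test. A minimum value of 50 left it no value. The remaining named Bmp6 region, 100 bp upstream of the table's start and inside the gene model, was the only pathway region counted at 48 h alone, at 49 and 50.

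Bmp7 showed a start region, 27 bp upstream, at 211 and 291 before RA, 173 and 157 after 18 h, 147 and 197 after 48 h, and 270 and 170 after 120 h. The groups at 0 and 120 h overlapped. Relative to the median region it was 0.85 higher (SE 0.22, adjusted p = 0.0400) at 48 h and 0.68 higher (SE 0.22, adjusted p = 0.0253) at 120 h. The first call was lost without either 0 h library or either 48 h library (adjusted p from 0.0818 to 0.202), the second without 0 h replicate 1, 120 h replicate 1 or 120 h replicate 2 (0.0676 to 0.129), and both after removal of the GC trend (0.0688 and 0.207).

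Bmp2 stayed low, with 73 and 71 before RA, 41 and 43 after 18 h, 47 and 42 after 48 h, and 44 and 53 after 120 h in a region 591 bp upstream of the table's start, 449 bp inside the gene model. Bmp8a and Bmp8b are near-identical neighbours, so reads may be hard to place between them. Their start regions stood at 143 and 192 for Bmp8a and 157 and 235 for Bmp8b at 0 h. At 18 h they stood at 58 and 95, and 54 and 106, at 48 h at 81 and 78, and 71 and 85, and at 120 h at 121 and 96, and 112 and 91. In all 3 genes the 0 h libraries were above every later library. Of the 24 counted regions of the BMP ligands, 14 (58.3%) were at 0 h only, against 49.8% of all regions.

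Activin subunit genes had 1 later peak each, while Nodal and Gdf9 each kept 1 region in all libraries. The Inhba region 2075 bp upstream of the table's start, 549 bp inside the gene model, had 59 and 63 at 0 h and 37 in 120 h replicate 1, and the Inhbb region 488 bp past the start had 82 and 66 at 0 h and 59 in 48 h replicate 2. These heights lie close to the calling limit. Nodal, known from early embryo patterning, had a region 364 bp past its start at 71 and 86 before RA, at 39 and 48 in replicate 2 of 18 and 48 h, and at 56 and 47 after 120 h. The Nodal region found in all libraries, 5548 bp past the start, stood at 90 and 128, 52 and 52, 51 and 58, and 77 and 67. Gdf9, best known as an oocyte growth factor, was listed for 1 region shared in all libraries, 2182 bp upstream of the table's start and 81 bp past the outer start of the gene model, which the table also lists under Aff4, Leap2 and Uqcrq. It stood at 638 and 894 before RA, 256 and 380 after 18 h, 295 and 325 after 48 h, and 777 and 598 after 120 h, so that the 120 h libraries overlapped those at 0 h. Relative to the median region it was 0.74 higher (SE 0.21, adjusted p = 0.0135) at 120 h than at 0 h, which was lost without 0 h replicate 1 (adjusted p = 0.0885) or 120 h replicate 2 (0.0985), and with quantile normalization it was 0.18 higher (0.517). It was 0.64 higher (SE 0.21, adjusted p = 0.0489) than at 48 h, which was lost when any of the 8 libraries was left out (adjusted p from 0.0505 to 0.231), and with quantile normalization it was 0.066 higher (0.888).

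Antagonists were open at 0 h and thinner later. Fst, encoding the activin-binding follistatin, had 140 and 155 before RA, 41 and 72 after 18 h, 47 and 51 after 48 h, and 81 and 51 after 120 h in a region 138 bp past the start. Nog, encoding the BMP-binding noggin, had 169 and 264, 101 and 102, 59 and 99, and 177 and 118 in a region 993 bp upstream. For Fst the 0 h libraries were above all others, whereas for Nog a 120 h library lay between those at 0 h. Lefty1 and Lefty2, which restrain Nodal, had no region within 1000 bp of their starts. The highest Lefty1 region, 7361 bp past the start and also listed under Tmem63a, had 101 and 104 before RA, then 43 and 48 for replicate 1 of 48 and 120 h. Lefty2 had 3 peaks in each 0 h library and 1 or 2 in each later library.

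Type I receptors, which carry the kinase that phosphorylates SMADs, differed between members. Bmpr1b was the receptor gene with fewest later peaks, and its region 427 bp past the start had 98 and 86 at 0 h and no later peak. The other Bmpr1b region found later, 50667 bp past the start, had 122 and 104 at 0 h, 31 and 38 at 18 h and 34 in 48 h replicate 2. Bmpr1a, by contrast, kept the region shown above, 302 bp upstream, in all libraries at 122 and 144, 68 and 79, 74 and 72, and 98 and 91. Its 0 h libraries were above every later library.

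Tgfbr1, the TGF beta type I receptor, had the region 249 bp upstream at 485 and 575 before RA, 163 and 323 after 18 h, 233 and 190 after 48 h, and 450 and 386 after 120 h. It was higher at 120 h than at 48 h by 0.99 (SE 0.37, adjusted p = 0.0388) without scaling, when the median over all regions was 0.56 higher. The call was lost under the replicate block (0.0612), with the mean signal (0.0641), with only these timepoints (0.0822), after median centring, after quantile normalization (0.972), and without either 0 h library, either 48 h library or 120 h replicate 1 (0.0547 to 0.224). Acvr1b, an activin receptor, had 190 and 255, 58 and 112, 83 and 99, and 160 and 169 in a region 269 bp upstream. In both genes the 0 h libraries were the highest. Acvr1 lacked a peak in 48 h replicate 1 alone, with 126 and 142, 43 and 63, 50 in 48 h replicate 2, and 64 and 61. Acvr1c, a receptor for Nodal and activin, was near the calling limit at 50 and 44, 38 and 37, 29 in 48 h replicate 1, and 31 and 48. Of 26 counted type I receptor regions, 14 (53.8%) were at 0 h only and 5 (19.2%) in all libraries, against 49.8% and 25.3% of all regions.

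Type II receptors bind ligand together with type I receptors and activate them. In Tgfbr2 the region 573 bp upstream was found only at 0 h, at 67 and 84. In Bmpr2 the region 99 bp past the table's start was likewise found only at 0 h, at 101 and 119, but it lay inside the gene model. The Bmpr2 region at the model's own start, 136 bp upstream of it, kept a peak in all libraries at 186 and 299, 89 and 174, 109 and 126, and 152 and 158, with both 0 h libraries the highest. An intronic region of Tgfbr2, 71651 bp past the start, stood at 160 and 163, 56 and 61, 39 and 49, and 59 and 53. An intronic region of Bmpr2, 69219 bp past the start, stood at 248 and 235, 116 and 120, 66 and 96, and 99 and 63. In both, each 0 h library was above every later one. The Tgfbr2 region, relative to the median, fell by 0.64 (SE 0.22, adjusted p = 0.0355) at 120 h, which was lost without either 0 h library or 120 h replicate 1 (adjusted p from 0.0514 to 0.219) and after removal of the GC trend (0.119), and whose size was 0.36 with the mean signal (0.159). The 69219 bp region of Bmpr2 fell by 0.72 (SE 0.22, adjusted p = 0.0193), which was lost without 0 h replicate 1, 120 h replicate 1 or 120 h replicate 2 (0.0512 to 0.141). The activin receptors Acvr2a and Acvr2b kept their start regions in all libraries. Acvr2a had 172 and 164 before RA, 62 and 75 after 18 h, 64 and 73 after 48 h, and 115 and 114 after 120 h. Acvr2b had 324 and 464, 127 and 196, 161 and 203, and 361 and 250, with a 120 h library between those at 0 h.

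The coreceptor gene Tgfbr3 had the most regions, 22, and its start region, 37 bp upstream, was found in 6 libraries, at 113 and 129 before RA, at 55 for replicate 2 of 18 h, at 45 and 56 after 48 h, and at 61 for replicate 1 of 120 h. The intronic region shown above, 152219 bp past the start, stood at 553 and 552 before RA, 189 and 240 after 18 h, 138 and 247 after 48 h, and 221 and 92 after 120 h. The 120 h libraries differed more from each other than those at 0 h. Relative to the median region it fell by 1.06 (SE 0.26, adjusted p = 0.00704) from 0 to 120 h, which was lost only without 120 h replicate 2 (adjusted p = 0.0796). From 48 to 120 h it fell by 0.87 (SE 0.26, adjusted p = 0.0374), which was lost without either 18 h library, either 48 h library or 120 h replicate 2 (0.0518 to 0.252). A downstream region, 184667 bp past the start, stood at 205 and 274, 121 and 95, 59 and 103, and 109 and 41, and fell by 0.94 (SE 0.30, adjusted p = 0.0242) at 120 h. That call was lost without either 0 h library or 120 h replicate 2 (0.0526 to 0.233). Another intronic region, 160027 bp past the start, went the other way at 18 h. It stood at 85 and 61, 81 and 78, 36 and 62, and 47 and 36, and against the median region it was 1.40 higher (SE 0.27, adjusted p = 0.0201) at 18 h, which was lost without 0 h replicate 2 (0.130) or 18 h replicate 1 (0.296). Quantile normalization ended this call too, at 1.13 higher (limma adjusted p = 0.0807). Regions of Tgfbr3 were thus called relative to the median in both directions, in different comparisons.

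**Figure D4:**
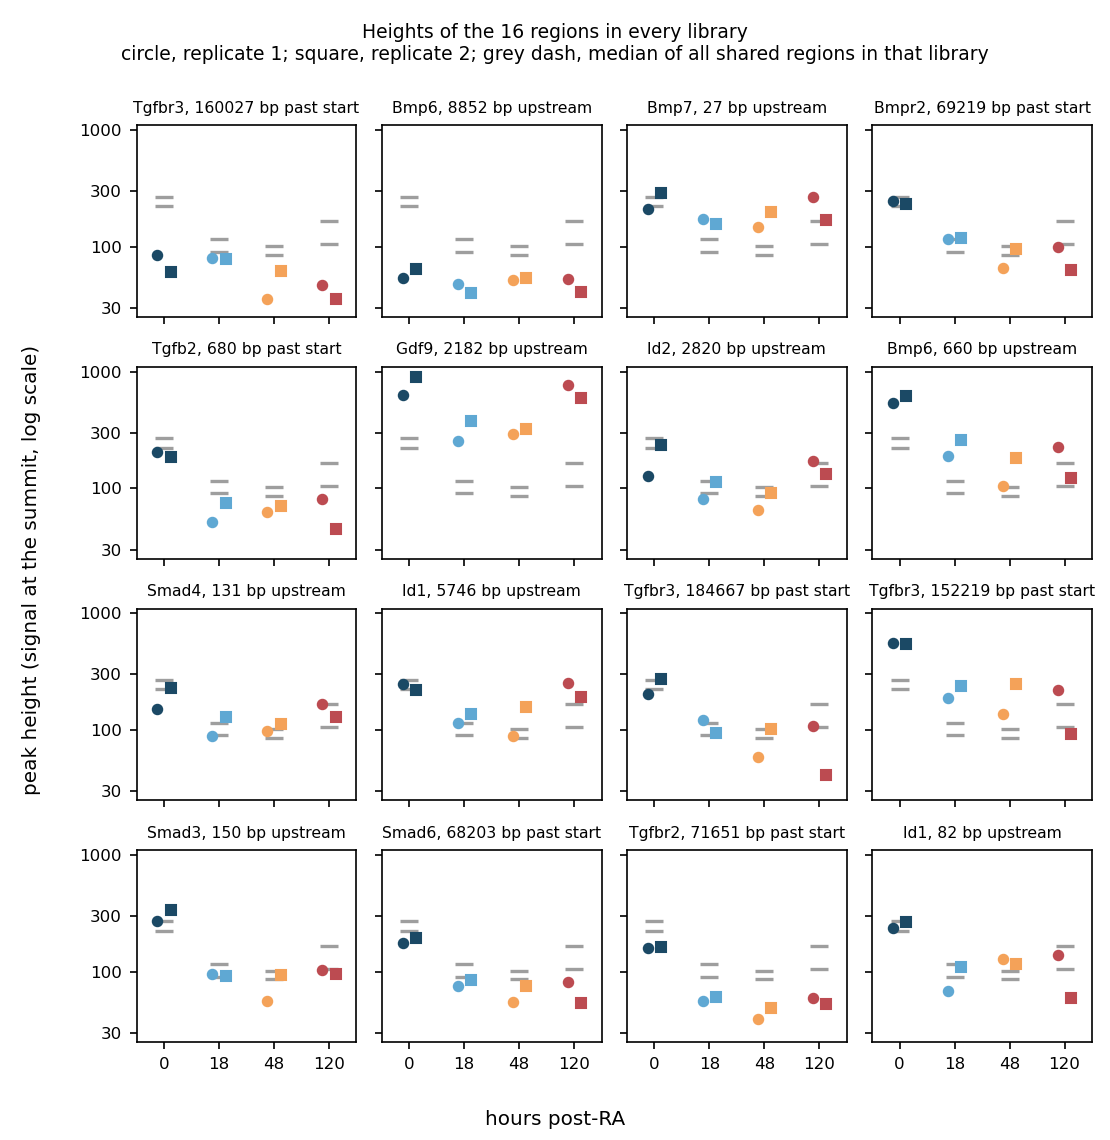
Peak heights (signal at the summit, log scale) of the 16 pathway regions called relative to the median region in at least 1 comparison, by hours post-RA, with circles for replicate 1, squares for replicate 2 and grey dashes for the median of all shared regions in each library. The Tgfbr3 region 152219 bp past the start goes from 553 and 552 before RA to 221 and 92 after 120 h, whereas the Id1 region 5746 bp upstream returns to 255 and 191.

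Receptor-regulated SMAD genes all kept a region in every library, with 5 of their 19 counted regions (26.3%) shared, against 25.3% of all regions. Smad3, an effector of TGF beta and activin, had the region 150 bp upstream at 270 and 338 before RA, 96 and 92 after 18 h, 56 and 93 after 48 h, and 104 and 95 after 120 h. Relative to the median region it fell by 0.71 (SE 0.25, adjusted p = 0.0351) at 120 h, which was lost without either 0 h library or 120 h replicate 1 (adjusted p from 0.0890 to 0.212). Its partner Smad2, in a region 389 bp upstream, had 447 and 587, 158 and 237, 130 and 140, and 325 and 255, and was higher at 120 h than at 48 h by 1.09 (SE 0.37, adjusted p = 0.0238) without scaling. That call was lost with only these timepoints (0.0590), after median centring (0.0608) or quantile normalization (0.452), and without either 48 h library or 120 h replicate 1 (0.101 to 0.243). For both genes the 0 h libraries were above all later ones.

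The SMAD genes on the BMP side were also highest at 0 h. Smad1, 12 bp past the start, had 284 and 421, 131 and 195, 123 and 168, and 257 and 181. Smad5, in an intronic region 1118 bp past the start, had 180 and 225, 60 and 92, 74 and 87, and 129 and 95. Smad9, 190 bp upstream and also listed under Alg5, had 77 and 100, 40 and 45, 36 and 40, and 54 and 52. In each of them both 0 h libraries stood above the 6 later ones.

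Smad4, the partner of all receptor-regulated SMADs, had a start region 131 bp upstream at 152 and 229, 89 and 130, 98 and 113, and 169 and 130, in which a 120 h library lay between those at 0 h. It was 0.56 higher (SE 0.21, adjusted p = 0.0483) relative to the median at 120 h, the smallest in size of the 19 calls, which was lost when any library other than 120 h replicate 1 was left out (adjusted p from 0.0505 to 0.271) and after removal of the GC trend (0.352). Inhibitory SMAD genes kept 4 of 9 counted regions (44.4%) in all libraries, against 25.3% of all regions. Smad6 had 256 and 356, 79 and 145, 95 and 100, and 187 and 129 in a region 1045 bp upstream. A coding exon of Smad6, 68203 bp past the start, held a region at 178 and 195, 75 and 85, 55 and 75, and 82 and 54, with each 0 h library above every later one. Its height relative to the median fell by 0.59 (SE 0.20, adjusted p = 0.0302) at 120 h, a call lost when any library of 0 or 120 h was left out (0.0634 to 0.142), and which was 0.38 in size after quantile normalization (0.173). Smad7 had 206 and 257, 87 and 103, 112 and 118, and 212 and 102 in a region 741 bp upstream, with a 120 h library between those at 0 h.

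The Id genes encode inhibitors of basic helix-loop-helix factors. At the Id1 start the region 82 bp upstream had 235 and 268 before RA, 69 and 110 after 18 h, 128 and 117 after 48 h, and 140 and 60 after 120 h. It fell by 0.92 (SE 0.24, adjusted p = 0.0281) relative to the median from 48 to 120 h, which was lost without either 48 h library or 120 h replicate 2 (0.117 to 0.174). A more distal region, 5746 bp upstream and shown above, had 248 and 221, 116 and 137, 89 and 157, and 255 and 191. The 120 h libraries surrounded those at 0 h, and relative to the median the region was 0.81 higher (SE 0.24, adjusted p = 0.0185) at 120 h, which was lost without 0 h replicate 2 (0.130) or 120 h replicate 2 (0.114). With the mean signal of the peak it was 0.26 higher and not called (0.384).

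Id2 had a start region and a distal region in all libraries as well. Its start region, 100 bp upstream, had 348 and 449, 138 and 192, 144 and 197, and 268 and 178, with both 0 h libraries the highest. The distal region 2820 bp upstream, whose window carries 2 GGCGCC elements, had 127 and 238, 81 and 114, 65 and 92, and 172 and 133, with both 120 h libraries between those at 0 h. It was 0.69 higher (SE 0.24, adjusted p = 0.0350) relative to the median at 120 h, which was lost without 0 h replicate 1 (0.312) or 120 h replicate 2 (0.189) and after removal of the GC trend (0.198). Id3, 46 bp upstream, had 270 and 306, 100 and 116, 103 and 134, and 185 and 90, with the 0 h libraries above all others.

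The 72 regions counted at 0 h and at no later timepoint were not all without later peaks. Of them, 37 lacked a peak in each of the 6 later libraries. The rest kept a peak in a single library of at least 1 later timepoint. The matching share of all regions was not counted, so 37 of 72 cannot be called many or few. Of the 72, the 3 with the highest value in the lower 0 h library were near Bmp7, Bmp8b and Smad3. Downstream of Bmp7, 76933 bp past the start, heights were 175 and 266 before RA, then 66 and 52 for replicate 2 of 18 and 48 h, and 61 for replicate 1 of 120 h. The Bmp8b region 11699 bp past the start, also listed under Oxct2b, had 147 and 279 before RA, then 66 for replicate 2 of 48 h and 71 for replicate 1 of 120 h. Upstream of Smad3, 6518 bp from the start, 138 and 131 were found at 0 h and 59 in 18 h replicate 2. Each of the 3 regions kept a low peak in at least 1 later library. For roles not given above, the share of counted regions at 0 h only was 57.1% for activin, Nodal and GDF ligands and 50% for antagonists. It was 52.9% for type II receptors, 35.7% for the coreceptor and 36.8% for receptor-regulated SMAD genes. For Smad4 it was 33.3%, for inhibitory SMAD genes 44.4% and for the Id genes 33.3%, against 49.8% of all regions.

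At 120 h only, 6 of 151 regions (3.97%) were counted, against 2.49% of all regions. They were near Smad4, Acvr1b, Lefty1 and Id3, and none was within 1000 bp of a start. An intron of Smad4, 1789 bp past the start, had 191 and 96 at 120 h and no peak in any other library. The repeat region of Acvr1b shown above, 21907 bp past the start, had 66 and 47, and the Lefty1 region 9663 bp upstream had 56 and 47, again with no peak elsewhere. The other 3 also had a peak in an earlier library. Downstream of Acvr1b, 41971 bp past its start, 122 and 40 at 120 h stood beside 82 in 0 h replicate 1 and 45 in 48 h replicate 1. The Id3 region 3310 bp upstream had 122 and 79, beside 115 in 0 h replicate 2 and 70 in 48 h replicate 2. The Id3 region 4146 bp past the start had 130 and 113, beside 146 in 0 h replicate 2 and 73 in 18 h replicate 2.

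Sequence elements of the pathway were searched on both strands in windows of 300 bp around the highest summit of each region. GGCGCC was found in 30 of 202 pathway windows (14.9%), against 8.81% of all regions. In the shared regions it was found in 15 of 45 (33.3%), against 19.1%, and in the regions at 0 h only in 5 of 72 (6.94%), against 6.93%. The shared pathway regions were also richer in GC, as given above, and the part of GC content in this share was not tested. The SMAD palindrome GTCTAGAC was found in 0 of 202 windows, against 0.298% of all regions. The direct repeat of retinoic acid receptor core motifs spaced by 5 bases was found in 0 of 202, against 0.141%. A match is a description of the letters in the window and not a site.

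A further list of 50 ligands, antagonists, receptors, regulators and targets of the family, described by counts only, had 48 genes in the table and 47 counted at a timepoint. Of these, 28 (59.6%) were counted at all 4 timepoints and 7 (14.9%) at 0 h only, against 72.8% and 12.9% of all genes. The 7 were Bmp10, Gdf3, Gdf5, Chrdl1, Cer1, Sost and Sostdc1. Of their regions counted at a timepoint, 63 of 150 (42%) were at 0 h only and 34 (22.7%) in all libraries, against 49.8% and 25.3% of all regions. At 120 h 8 of these 34 were higher and 5 were lower relative to the median region, against 23.0% and 15.8% of all regions.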

How the data were processed

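The authors aligned the reads to mm10, removed duplicates, reduced each library to an equal number of tags, extended the alignments, binned them into signal maps, and called peaks per library with no control. Per the submitters' processing notes, bcl2fastq 2.20, BWA 0.7.12, SAMtools 0.0.19, bedtools 2.25.0 and MACS2 2.1.0 were used. The deposited table gives, for each peak, its summit signal and its mean signal, as tag coverage, with the genes that the authors assigned. Browser tracks and the list of merged regions were not used here.

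Regions were made by joining peaks that shared at least 1 bp across libraries. A timepoint was counted where both libraries had a peak. Log2 summit values entered limma 3.58.1 (R 4.3.3) with 4 groups, 4 residual degrees of freedom, no block, Benjamini-Hochberg adjustment over all 15536 shared regions and a threshold of 0.05, with and without subtracting each library's median. Peaks per gene were compared with exact permutation tests in Python 3.11.15. Region joining and limma were tested on simulated data, for limma without a shift of the whole library. The permutation test was checked on small made examples only. Features came from GENCODE vM21 basic, and GC content, repeat marks and sequences from GRCm38.

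The genes and lists were chosen with earlier results of these data known. The text accounts for every gene, gives its highest region within 1000 bp of the start (or else anywhere), all regions past the threshold relative to the median, the 3 highest at 0 h only and all at 120 h only. For counts, alternatives were a peak in either library, a minimum value of 50, an equal number of top peaks per library (24643), peaks in the gene or within 1000 bp of its start, and an overlap of 50% of both peaks. For heights they were the mean signal, a minimum value of 50, a replicate block, only the timepoints compared, an intensity trend, median centring and quantile normalization. Each library was also left out in turn. Removal of the GC trend (natural spline, 5 df), alone or with the block, was added after the data were seen. Each library came from 1 mouse, with 2 mice per timepoint, so p-values rest on the spread between mice within timepoints. Without scaling, limma gave every shared pathway region the same standard error of 0.37. Those calls thus rest on 1 common spread and not on the spread of each region's own libraries. Reads per region were not analysed here. The heights of 1 region are not reported here.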

Additional observations from a re-analysis of the deposited data

How the results depend on the processing

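Genes at 0 h only numbered 1 with a peak in either library, 7 with values of at least 50, 0 with an equal number of top peaks per library and 5 with peaks in or near the gene, against 3. With an equal number of top peaks, genes with more peaks at 0 h fell from 21 to 1, regions at 0 h only from 72 to 10, and the share of 0 h regions also found at 18 h rose from 43.8% to 78.3%. An overlap of 50% of both peaks gave 25 regions at all 4 timepoints and a share of 28.1%. Genes at all 4 timepoints numbered 34 with any library left out.

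For heights not taken relative to the median, 0, 0 and 2 regions were lower at 18, 48 and 120 h after quantile normalization, and 0, 0 and 8 after median centring. Over all 15536 regions the numbers were 29, 330 and 1586, and 35, 235 and 2449. Against 42, 41 and 22, with a library left out 20 to 42, 31 to 42 and 8 to 28 were lower. Regions higher at 120 h than at 48 h numbered 2 with the replicate block, 0 with only these timepoints, 8 with values of at least 50, 0 after quantile normalization, 1 after median centring and 0 to 13 with a library left out, against 5. Relative to the median, calls at 18 h numbered 2 with the mean signal, 0 with values of at least 50 or quantile normalization, and 0 to 1 with a library left out. At 48 h they numbered 1 with values of at least 50 or quantile normalization, and 0 to 2 with a library left out. At 120 h, 2 were lower and 0 higher after quantile normalization, 2 to 8 lower and 0 to 7 higher with a library left out, 3 higher with only these timepoints or the GC trend removed, with or without the block, and 2 higher with values of at least 50. From 48 to 120 h, 0 were called after quantile normalization, 5 with the GC trend removed, with or without the block, and 0 to 3 with a library left out. The calls of single regions held under 196 of the settings tried for them and were lost under 103, and none changed sign. Counts of height calls over all regions also moved under these settings. The cause of these moves was not tested.

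Replicate differences correlated between −0.22 and 0.25 across pairs of timepoints. Whether libraries with the same replicate number belong together was not settled by this. Apart from the count from 48 to 120 h, the block alone changed no count by over 1.5 times. A region lost at any timepoint has no height there and is in no height comparison.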
